A study of Homo sapiens with 12 samples.

Results

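The EGF family ligands are growth factors that are made as membrane-anchored precursors and bind the ERBB receptors, and the sheddases ADAM10 and ADAM17 are the metalloproteases that cut most of them free. The genes examined here were 7 ligands (EGF, TGFA, AREG, EREG, HBEGF, BTC and NRG1) and 2 sheddases (ADAM10 and ADAM17), 9 of the 20503 named genes on the array, chosen by name and found through the transcript that each probe carries in the array files. They are read by 13 of 50599 probes: 4 genes (TGFA, AREG, NRG1 and ADAM10) have 2 probes and the other 5 have 1. RNA came from HA22T and PLC5, established human hepatocellular carcinoma lines, each a single line, 48 h after transfection with 10 nM of a non-targeting siRNA (siControl) or of a pool of siRNAs against GALNT1 (siGALNT1), an enzyme that starts mucin-type O-glycosylation. The 4 groups were HA22T siControl, HA22T siGALNT1, PLC5 siControl and PLC5 siGALNT1, with 3 arrays each. All cells were cultured with serum and all were lipofected, so no untransfected cells stand beside them. The labels do not say that the replicates were separate cultures, so the p-values measure the spread between these samples, which may be technical.

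The ligands divide by receptor. EGF, TGFA and AREG bind EGFR, the ligands EREG, HBEGF and BTC bind EGFR and ERBB4, and NRG1 binds ERBB3 and ERBB4. In most tissues ADAM17 releases TGFA, AREG, EREG and HBEGF, and ADAM10 releases EGF and BTC. In the liver these ligands are known for their part in regeneration and in tumor growth. An mRNA level says nothing of how much precursor is cut or secreted, and neither was measured on these arrays.

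EREG and AREG lie next to each other on chromosome 4 between EPGN and BTC, with no other RefSeq gene between them and 2 uncharacterised loci between AREG and BTC. The 250 bases before the RefSeq start of AREG and of EREG are shown because these were the members that differed most between the lines, beside BTC, their neighbor that was not called, and ADAM17, the sheddase that differed. Capitals mark matches, on either strand, to TATAAA, TGACGTCA and GGGCGG.
AREG (GRCh38.p14, chr4:74444886-74445135, + strand): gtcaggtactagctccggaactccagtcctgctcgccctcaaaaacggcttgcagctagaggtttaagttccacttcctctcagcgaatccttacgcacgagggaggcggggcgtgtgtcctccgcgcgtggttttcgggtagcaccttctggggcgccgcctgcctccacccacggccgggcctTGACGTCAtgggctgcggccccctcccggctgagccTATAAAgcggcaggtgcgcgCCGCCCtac
EREG (GRCh38.p14, chr4:74364895-74365144, + strand): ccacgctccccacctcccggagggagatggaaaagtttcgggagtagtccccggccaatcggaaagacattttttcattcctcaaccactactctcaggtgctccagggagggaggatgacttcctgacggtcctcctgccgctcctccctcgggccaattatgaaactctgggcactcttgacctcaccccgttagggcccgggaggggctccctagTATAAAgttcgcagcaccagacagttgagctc
BTC (GRCh38.p14, chr4:74794524-74794773, - strand): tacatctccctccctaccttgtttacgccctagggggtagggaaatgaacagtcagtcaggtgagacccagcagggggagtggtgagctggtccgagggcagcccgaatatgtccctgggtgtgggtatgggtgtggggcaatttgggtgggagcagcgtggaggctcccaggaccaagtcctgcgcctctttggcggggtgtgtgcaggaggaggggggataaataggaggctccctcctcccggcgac
ADAM17 (GRCh38.p14, chr2:9555831-9556080, - strand): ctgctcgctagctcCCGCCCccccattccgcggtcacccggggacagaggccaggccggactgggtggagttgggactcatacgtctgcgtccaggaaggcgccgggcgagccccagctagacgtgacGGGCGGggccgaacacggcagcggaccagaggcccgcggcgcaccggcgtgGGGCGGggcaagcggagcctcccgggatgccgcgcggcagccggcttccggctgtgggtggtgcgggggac
AREG and EREG both hold TATAAA, which begins 29 and 32 bases before the start, and 10.7% of 35116 RefSeq windows of this length hold it on either strand. AREG also holds TGACGTCA, the cyclic AMP response element, 65 bases before the start, a word found in 1.65% of windows. GGGCGG, found in 42.6% of windows, has 3 matches before ADAM17 and 1 before AREG. TGANTCA, held by 6.57% of windows, matches none of the 4, and CCAAT, held by 32% of windows, matches EREG at 196 and 95 bases before the start. No match overlapped another here, and BTC has none of the 5 words. A match describes the letters only. The windows are those of RefSeq, and their use in these cells was not measured.

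Values are log2 of the scanner's processed signal minus the 75th percentile of the same array, so 0 is the level of a spot brighter than 75% of spots. A spot counts as well above background when the scanner software says so, and spots it marked as non-uniform are left out unless stated. Each array held 58717 spots, of which between 36679 and 48873 were well above background and none was saturated. The level of one probe cannot be set against that of another, so genes are compared only with themselves. The HA22T arrays all lay on the first slide with the replicate 1 arrays of PLC5, and the other 4 PLC5 arrays lay on a second slide. GALNT1 itself read lower with siGALNT1 in 3 of 3 replicates of each line. Its brighter probe gave a log2 difference of -5.10 in HA22T and -3.72 in PLC5, with adjusted p-values of 0.0708 and 1.00 in limma, and its other probe gave -4.75 and -3.03, with adjusted p-values of 0.0305 and 1.00. In HA22T siGALNT1 the brighter probe was well above background on 2 of 3 arrays and the other on 1 of 3, so the size of the HA22T differences rests partly on signals near background. By their markers the lines differ widely: 7 of 8 hepatocyte markers were higher in PLC5 with siControl. With non-uniform spots kept, the mean of all 8 ran from -3.52 to -3.31 on HA22T siControl arrays. It ran from 0.92 to 1.51 on PLC5 siControl arrays. VIM and ZEB1, 2 of 3 genes of mesenchymal cells, were higher in HA22T. The other, CDH2, averaged 4.08 in HA22T siControl and 2.59 in PLC5 siControl on its brightest probe and was not called. That probe was usable on 2 of 3 arrays in each of these groups, and the other CDH2 probe averaged 2.40 and -0.22. With siGALNT1 all 3 mesenchymal genes were called higher in HA22T. Of 4 epithelial markers KRT8 and KRT18 were well above background on every array in both lines, EPCAM on 1 of the 6 siControl arrays and CDH1 on 3. Of 2 endothelial genes PECAM1 was higher in PLC5 with siControl, by 5.41, and CDH5, at -3.08 in HA22T and -2.76 in PLC5, was not called. The brightest probes of all 3 blood markers (PTPRC, CD68 and CD3E) were well above background on every array, but 2 other PTPRC probes were so on 0 and 6 of 12. A further PTPRC probe was well above background where usable and lost non-uniform spots in every group. Of the stellate cell markers DES was well above background on every array, and ACTA2 and PDGFRB only on some. The part of these differences in the results that follow was not tested.

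Among the members, AREG was the gene that separated the lines most, and EREG followed it. With siControl, 8 of the 9 genes could be compared, since at least 3 of the 6 arrays were well above background, and 3 differed at an adjusted p below 0.05 in limma: AREG and EREG were higher in PLC5 and ADAM17 was higher in HA22T. Over all probes tested 11% were higher in PLC5 and 11% were higher in HA22T, against 2 of 8 and 1 of 8 members. The median difference was 0.04 over the 8 members and -0.04 over all probes, and the median size was 1.14 and 0.51. With siGALNT1 the members called were AREG and EREG, higher in PLC5, and NRG1, higher in HA22T, 2 of 8 and 1 of 8 against 13.1% and 9.79% of all probes. Members are counted by their brightest probes and were chosen with earlier results known, so the shares over all probes are a description only. After quantile normalization the share of all calls with siGALNT1 that were higher in PLC5 moved from 57.2% to 45.2%.

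**Figure D1:**
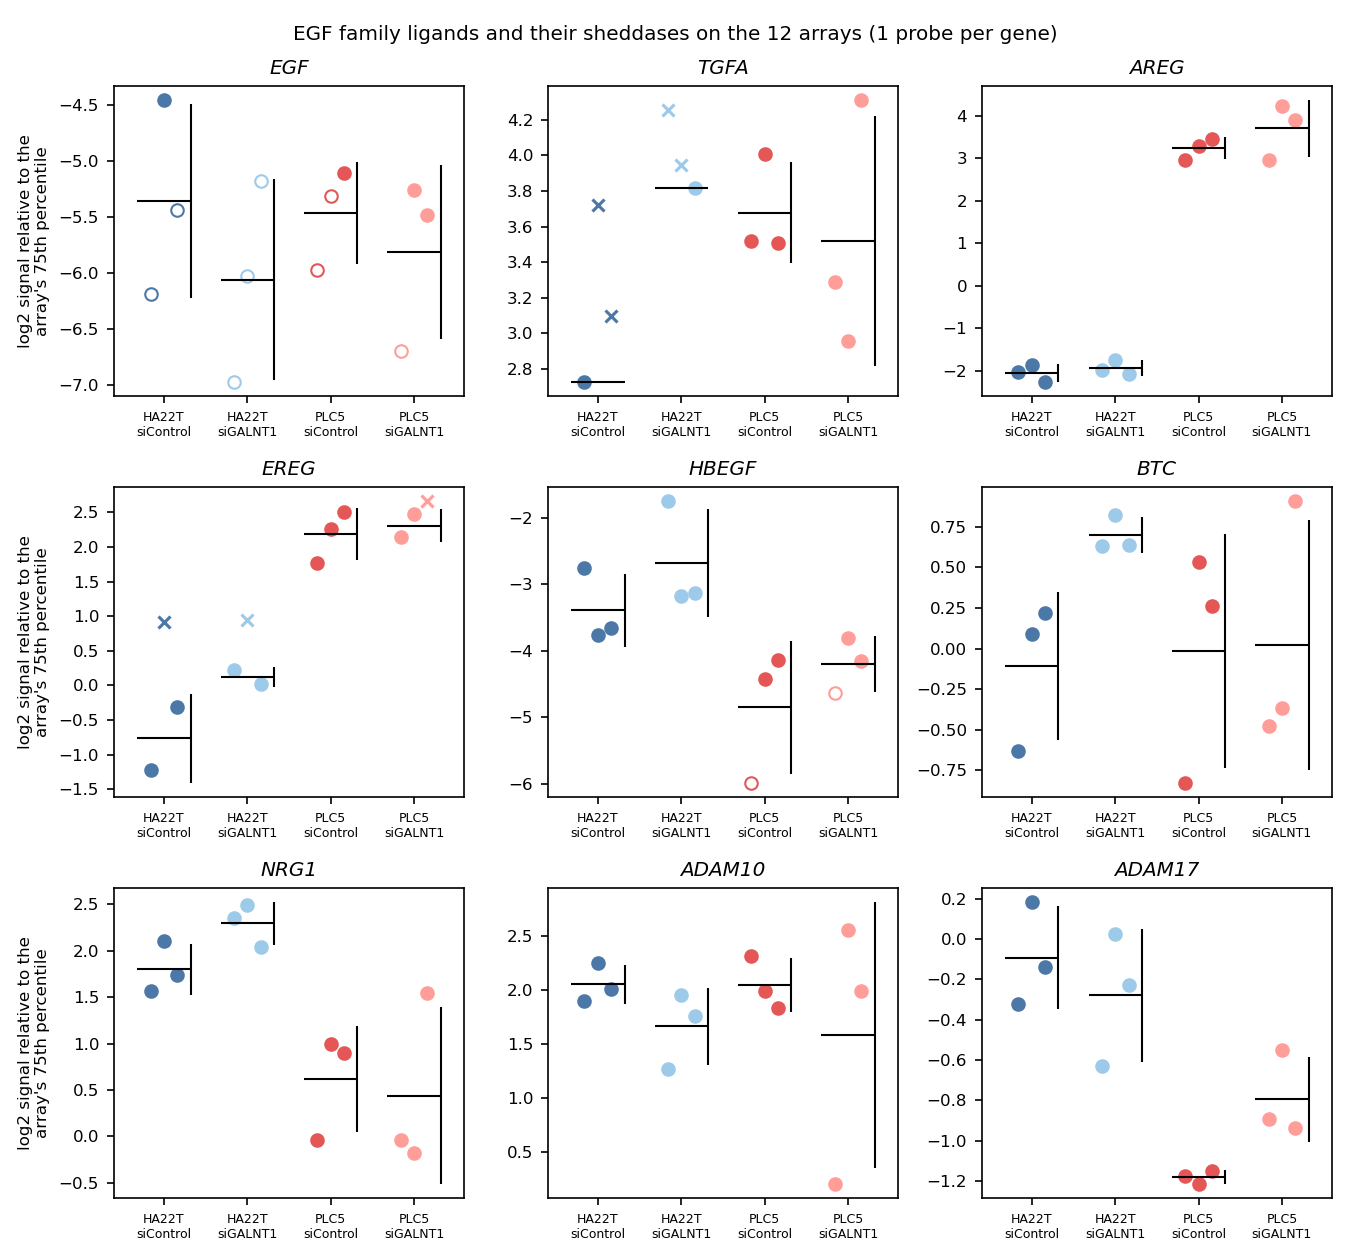
Level of each gene on each of the 12 arrays (y axis, log2 signal relative to the array's 75th percentile; scale differs by panel), by line and siRNA. Filled circles are well above background, open circles are not, crosses are non-uniform spots left out of the tests, horizontal bars are means and vertical bars are ± 1 SD; AREG stands near -2 in HA22T and above 2.9 in PLC5.

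AREG encodes amphiregulin, a ligand of EGFR. Its brighter probe read -2.03, -1.86 and -2.27 in HA22T siControl and 2.96, 3.29 and 3.46 in PLC5 siControl. With siGALNT1 it read -1.99, -1.73 and -2.08 in HA22T and 2.95, 4.24 and 3.91 in PLC5. Every PLC5 array was above every HA22T array. In RNA from a whole culture, more signal per cell and more cells that express the gene cannot be told apart. With siControl the difference was 5.29 (SE 0.33), a 39.0-fold higher signal in PLC5 with a 95% interval of 23.7 to 64.1 and an adjusted p of 8.5e-07 in limma. With siGALNT1 it was 5.63 (SE 0.33), or 49.7-fold, with an adjusted p of 6.29e-07 in limma. The other probe gave 5.34 and 5.84, and over the 12 arrays the probes had a Pearson correlation of 0.998, with the arrays split by line. With the slide as a block the differences were 4.78 and 5.12, and on the first slide alone PLC5 replicate 1 stood 5.01 and 4.89 above the HA22T mean. In order of level, HA22T siControl (-2.05 ± 0.21), HA22T siGALNT1 (-1.93 ± 0.18), PLC5 siControl (3.24 ± 0.25) and PLC5 siGALNT1 (3.70 ± 0.67, mean ± SD, n = 3), the neighbors within a line did not differ beyond their spread.

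EREG encodes epiregulin, a ligand of EGFR and ERBB4. Its probe was well above background on every array where it was usable, and 3 arrays lost it to a non-uniform spot. It read -1.22 and -0.31 in HA22T siControl and 1.77, 2.27 and 2.51 in PLC5 siControl. With siGALNT1 it read 0.23 and 0.02 in HA22T and 2.14 and 2.47 in PLC5. The lines did not overlap under either siRNA. The difference was 2.95 (SE 0.38) with siControl, a 7.72-fold higher signal in PLC5 (95% interval 4.23 to 14.1), with an adjusted p of 0.000718 in limma. With siGALNT1 it was 2.18 (SE 0.41), or 4.54-fold, with an adjusted p of 0.00618 in limma. The left-out spots read 0.92 and 0.95 in HA22T, the highest of their groups, and 2.66 in PLC5 siGALNT1. With those spots kept the difference with siControl was 2.39. With the slide as a block it was 2.62 with siControl and 1.94 with siGALNT1.

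ADAM17, the main sheddase of TGFA, AREG, EREG and HBEGF, went the other way. It read -0.32, 0.18 and -0.14 in HA22T siControl and -1.17, -1.22 and -1.15 in PLC5 siControl, and the groups did not overlap. The signal was 2.13-fold higher in HA22T, a log2 difference of -1.09 (SE 0.25, PLC5 minus HA22T) with an adjusted p of 0.00900 in limma. With siGALNT1 it read -0.63, 0.02 and -0.23 in HA22T and -0.89, -0.55 and -0.94 in PLC5, and here the groups overlapped. That difference was -0.52 (95% interval -1.07 to 0.04) with an adjusted p of 0.168 in limma, and with quantile normalization it was -0.78 with an adjusted p of 0.0481. Whether the line difference itself depended on the siRNA was tested as the interaction, which gave 0.57 (95% interval -0.21 to 1.36) and an adjusted p of 0.988 in limma. ADAM10, the sheddase of EGF and BTC, was not called. Its brighter probe averaged 2.05 ± 0.18 in HA22T siControl and 2.05 ± 0.25 in PLC5 siControl (SD, n = 3), a difference of -0.01 with a 95% interval of -1.09 to 1.08. Its dimmer probe gave -0.11 with an interval of -0.88 to 0.65.

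**Figure D2:**
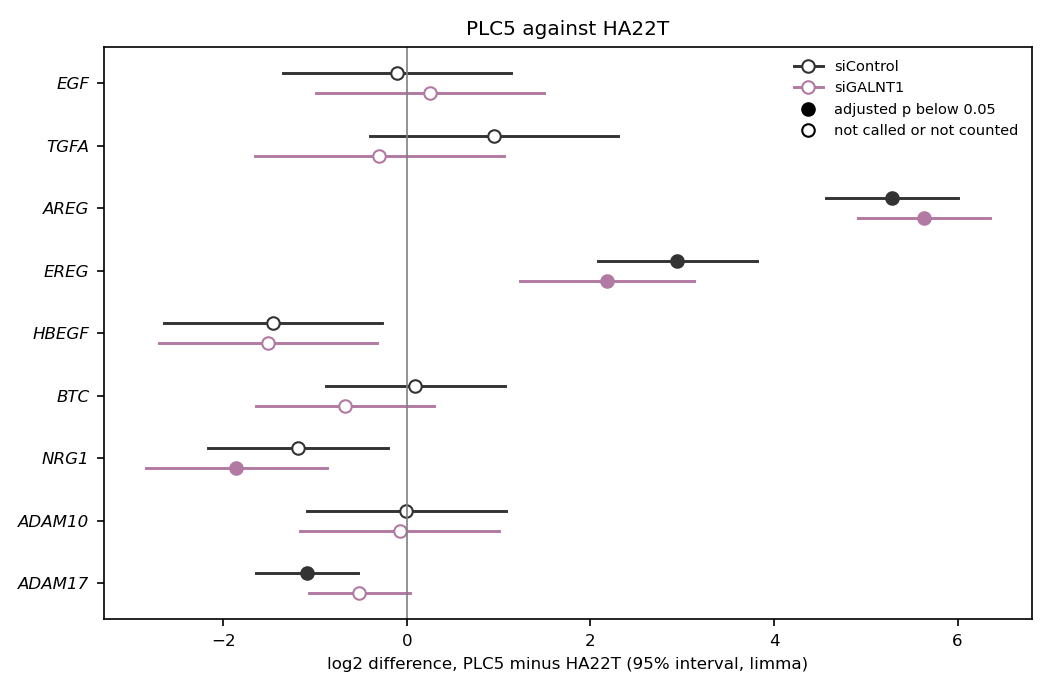
Difference between the lines for each gene (x axis, log2, PLC5 minus HA22T) with its 95% interval, for siControl and siGALNT1. Filled points have an adjusted p below 0.05; AREG and EREG lie to the right under both siRNAs, ADAM17 to the left with siControl and NRG1 to the left with siGALNT1.

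NRG1 and HBEGF had higher signals in HA22T, near the threshold. NRG1 encodes neuregulin, a ligand of ERBB3 and ERBB4. Its brighter probe read 1.57, 2.10 and 1.73 in HA22T siControl and -0.04, 1.00 and 0.90 in PLC5 siControl. With siGALNT1 it read 2.35, 2.49 and 2.04 in HA22T and -0.04, -0.18 and 1.54 in PLC5. The PLC5 arrays were below every HA22T array of the same siRNA. The difference was -1.18 (SE 0.45) with siControl at an adjusted p of 0.0853, and -1.85 (SE 0.45) with siGALNT1 at an adjusted p of 0.0115, both in limma. Without PLC5 siGALNT1 replicate 2 the latter was -1.55 with an adjusted p of 0.0525. The dimmer NRG1 probe gave -0.38 and -0.13 and was not called, so the probes of NRG1 differ in size. With the slide as a block the brighter probe gave -1.75 with siControl at an adjusted p of 0.0280.

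HBEGF encodes heparin-binding EGF, a ligand of EGFR and ERBB4. Its probe read -2.76, -3.76 and -3.66 in HA22T siControl and -5.99, -4.42 and -4.14 in PLC5 siControl. With siGALNT1 it read -1.75, -3.18 and -3.13 in HA22T and -4.63, -3.81 and -4.15 in PLC5. The lines did not overlap under the same siRNA, and replicate 1 of PLC5, the only one of its line on the first slide, was the lowest in both of its groups and not well above background. The differences were -1.46 with siControl and -1.51 with siGALNT1, with adjusted p-values of 0.0795 and 0.0664 in limma. With the slide as a block they were -2.25 and -2.30, with adjusted p-values of 0.0152 and 0.0132. On the first slide alone PLC5 replicate 1 stood 2.60 and 1.95 log2 units below the HA22T mean. The slide-block values depend on the same replicate 1 arrays, the only PLC5 arrays that share a slide with HA22T. Their HBEGF signals were not well above background, so the size of both sets of differences is uncertain.

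BTC, TGFA and EGF were not called between the lines. BTC encodes betacellulin, a ligand of EGFR and ERBB4, and was well above background on all 12 arrays. It averaged -0.11 ± 0.46 in HA22T siControl and -0.01 ± 0.72 in PLC5 siControl (SD, n = 3), a difference of 0.10 with a 95% interval of -0.88 to 1.07. With the slide as a block that difference was -0.56. With siGALNT1 the BTC difference was -0.67 (95% interval -1.65 to 0.30). With the slide as a block it was -1.33 (-2.29 to -0.37) with siGALNT1, at an adjusted p of 0.0543 in limma. TGFA encodes transforming growth factor alpha, a ligand of EGFR, and its brighter probe was usable on only 1 array of each HA22T group. Those arrays read 2.73 and 3.82, and the PLC5 arrays read between 2.96 and 4.31. The difference with siControl was 0.95 with a 95% interval of -0.40 to 2.30, in which the single HA22T array is assumed to vary like the arrays of the other groups. TGFA enters the counts of members compared between the lines, and of the difference between the lines' changes, only on that assumption. With the non-uniform spots kept, the HA22T arrays read from 2.73 to 3.72 with siControl and from 3.82 to 4.25 with siGALNT1. The other TGFA probe lay near background, and which probe reads TGFA was not tested. EGF encodes the family's founding ligand. Its probe was well above background on 4 of 12 arrays, 1 of HA22T siControl, 1 of PLC5 siControl and 2 of PLC5 siGALNT1, and was not counted between the lines. It averaged -5.36 ± 0.87 in HA22T siControl and -5.46 ± 0.45 in PLC5 siControl (SD, n = 3), near the bottom of what the arrays measure.

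For AREG the 2 probes moved together. For NRG1 and ADAM10 the Pearson correlation of the probes over the 12 arrays was 0.59 and 0.68, given as a description, since the arrays share line and slide. The dimmer TGFA probe was well above background on 1 array of 12, in HA22T siGALNT1, so the TGFA probes cannot be compared. Their Pearson correlation over the 12 arrays was 0.19 with non-uniform spots kept. For ADAM10, PLC5 siGALNT1 replicate 1 was low on both probes, at 0.20 on the brighter and -1.49 on the dimmer, where the other arrays of that group read 1.99 and above and -0.63 and above.

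**Figure D3:**
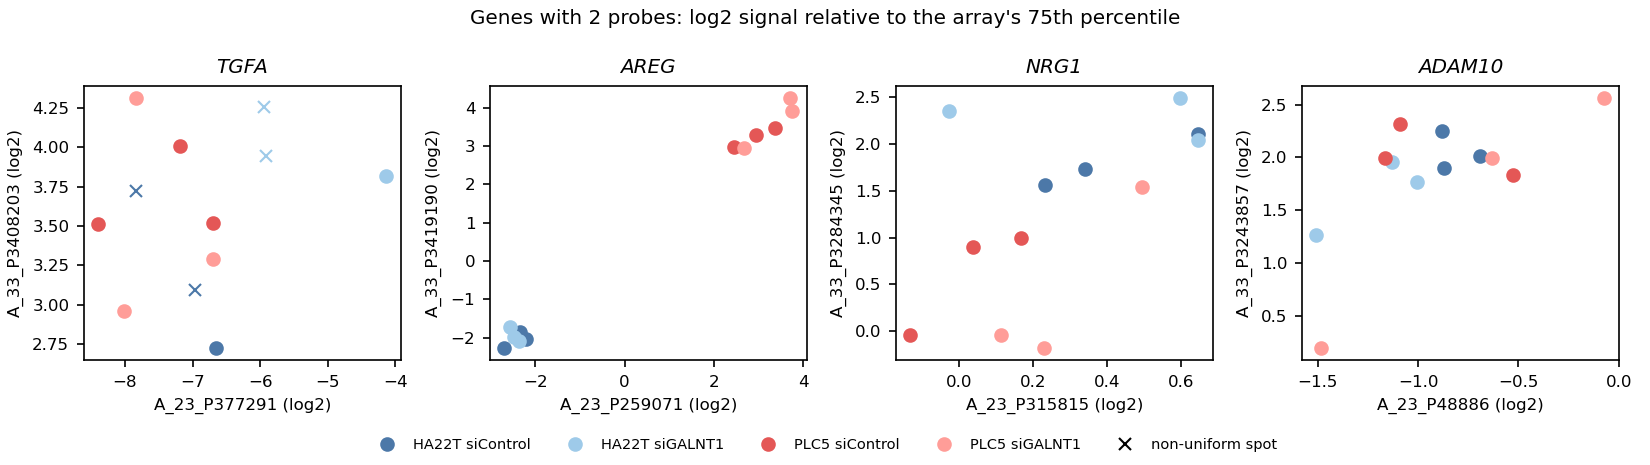
Log2 signal of the 2 probes of TGFA, AREG, NRG1 and ADAM10 against each other, a point per array, coloured by group, with crosses where a spot was non-uniform. AREG falls into a low HA22T cluster and a high PLC5 cluster on both probes. The dimmer TGFA probe was well above background on 1 array of 12.

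The study's arrays compared GALNT1 knockdown with control over all genes, and no member was called with siGALNT1 in either line. In HA22T, 7 of 9 members could be compared, and 0 passed an adjusted p of 0.05 in limma. 0 also passed the study's criterion of a 1.5-fold change with an unadjusted p below 0.05, and 0 had an unadjusted p below 0.05 at any size. These HA22T counts are from the fit without a replicate block. With that block HBEGF had an unadjusted p of 0.0487 in limma. Over all probes 0.00275% were called, a single probe, which is one of the pair for GALNT1, and the criterion took 1.82% of probes as higher and 1.05% as lower. In PLC5 all 9 members could be compared, and 0 were called, 0 passed the criterion and 0 had an unadjusted p below 0.05. Over all probes 0% were called there, and the criterion took 0.297% as higher and 0.996% as lower. The difference between the lines' changes was called in limma for 0 of the 9 members, with 0 at an unadjusted p below 0.05, and for 0% of all probes. Adjusted p-values over the members were 1.00 in HA22T and 1.00 in PLC5. An exact permutation test of 3 arrays against 3 cannot give a two-sided p below 0.1.

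Differences within the spread can still be bounded. In HA22T, among the ligands that could be compared, EREG gave 0.89 (95% interval -0.06 to 1.84), BTC 0.80 (-0.17 to 1.78), HBEGF 0.71 (-0.48 to 1.89), NRG1 0.49 (-0.49 to 1.48) and AREG 0.11 (-0.60 to 0.83). The EREG value rests on 2 arrays against 2. It was 0.60 with the non-uniform spots kept, where the groups overlapped, 0.43 without HA22T siControl replicate 1 and 1.35 without HA22T siControl replicate 3, where it passed the study's criterion. BTC read -0.63, 0.09 and 0.22 in HA22T siControl and 0.63, 0.82 and 0.64 in HA22T siGALNT1. Its groups did not overlap in HA22T and did in PLC5, where the difference was 0.03 (-0.94 to 1.01). BTC's difference between the lines' changes was -0.77 with a 95% interval of -2.14 to 0.60 and an adjusted p of 0.988 in limma. In HA22T the signals of HBEGF, BTC, NRG1 and AREG (brighter probes) were higher with siGALNT1 in 3 of 3 replicate pairs, and those of ADAM10 and ADAM17 were lower in 3 of 3. The dimmer AREG and NRG1 probes were lower in 2 of 3 pairs, with differences of -0.05 (-0.80 to 0.69) and -0.0006 (-0.57 to 0.57). The dimmer ADAM10 probe was lower in 3 of 3, with -0.40 (-1.17 to 0.37). How many of all probes kept the same direction in 3 of 3 pairs was not counted. With the replicate number as a block the HBEGF difference of 0.71 had a 95% interval of 0.01 to 1.41 and an adjusted p of 0.849, and it alone then passed the study's criterion. In that limma fit BTC had an interval of -0.01 to 1.62 with an unadjusted p of 0.0521. EREG had -0.08 to 1.86 with 0.0656, and the unadjusted p-values of NRG1, AREG, ADAM10 and ADAM17 were 0.205 and above. The methods' t-test in its place put BTC alone past the criterion, and 0 members after adjustment.

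**Figure D4:**
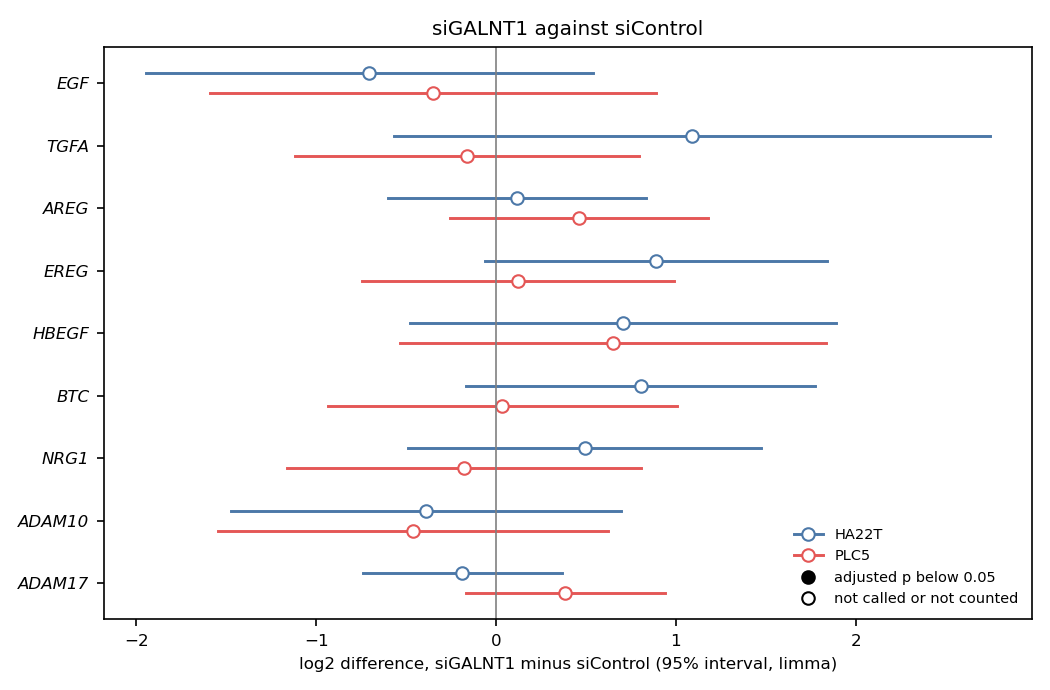
Change with siGALNT1 for each gene (x axis, log2, siGALNT1 minus siControl) with its 95% interval, in HA22T and in PLC5. Every interval includes 0 and no point is filled, since no gene had an adjusted p below 0.05.

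Neither sheddase was called. ADAM10 gave -0.39 (-1.48 to 0.69) in HA22T and -0.46 (-1.55 to 0.62) in PLC5, and without PLC5 siGALNT1 replicate 1 the PLC5 value was 0.23. ADAM17 gave -0.19 (-0.74 to 0.37) in HA22T and 0.39 (-0.17 to 0.94) in PLC5. In PLC5 the ADAM17 groups did not overlap, with -1.17, -1.22 and -1.15 for siControl and -0.89, -0.55 and -0.94 for siGALNT1. In PLC5 AREG gave 0.46 (-0.25 to 1.18), and 0.84 without PLC5 siGALNT1 replicate 1, where it passed the study's criterion. EREG gave 0.12 (-0.75 to 0.99), HBEGF 0.65 (-0.53 to 1.84), TGFA -0.16 (-1.12 to 0.80), NRG1 -0.18 (-1.16 to 0.80) and EGF -0.35 (-1.59 to 0.89). The dimmer probes in PLC5 gave 0.20 (-0.57 to 0.96) for ADAM10 and 0.25 (-0.31 to 0.82) for NRG1, against the sign of the brighter ones. The dimmer AREG probe gave 0.45 (-0.29 to 1.20) there. EGF and TGFA were not counted in HA22T. EGF gave -0.70 (-1.94 to 0.54) there. The brighter TGFA probe gave 1.09 between its single usable arrays, and 0.82 with the non-uniform spots kept, where the siControl and siGALNT1 arrays did not overlap. The dimmer TGFA probe was not well above background on any HA22T siControl array and was so on 1 of 3 HA22T siGALNT1 arrays, so no difference is given for it.

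The knockdown comparisons and the line comparisons share arrays, so their values are given side by side and not against each other. The widest 95% interval among the members reached 1.66 log2 units either side in HA22T and 1.24 in PLC5, and the narrowest 0.55 in both.

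The other genes of the pathway were taken from a list of 34 receptors, ligands, proteases, protease partners, inhibitors and ligand-handling proteins, of which 33 had a probe and 32 could be compared. Between the lines with siControl, 9 of 32 were higher in PLC5 and 7 of 32 were higher in HA22T, against 11% and 11% of all probes, with a median size of 1.00 against 0.51 over all probes. With siGALNT1 the counts were again 9 and 7, against 13.1% and 9.79% of all probes. The list was chosen with earlier results of these data known. It counts the brightest probe of each gene, while all probes include dimmer and unnamed ones, so these shares do not test the list. Among the receptors, ERBB3, which pairs with ERBB2 to bind neuregulins, was higher in PLC5 by 3.24 (SE 0.36) and ERBB4 by 2.49 (SE 0.56), while EGFR gave -0.38 and ERBB2 -0.25 and were not called. The ERBB4 probe averaged -5.55 in HA22T siControl, with 2 of 3 arrays well above background, so the size of its difference is uncertain. A further ERBB4 probe was well above background on no siControl array of either line. Among proteases ADAM19, which cuts neuregulins, was higher in PLC5 by 3.38, and RHBDL2, a rhomboid protease that cuts EGF, and BACE2 were higher in HA22T, with -2.97 and -2.15. Of the partners, FURIN, which removes the prodomain of both sheddases, was higher in PLC5 by 2.87, and TSPAN5, a tetraspanin that carries ADAM10, was higher in HA22T with -3.61. The inhibitors split: TIMP3, which blocks ADAM17, was higher in PLC5 by 3.39 and TIMP1, which blocks ADAM10, was higher in HA22T with -2.87. CD9, a tetraspanin that binds the HBEGF precursor, was higher in HA22T with -1.95. The other 6 called were RHBDF2, FRMD8, TSPAN14 and CNIH1, higher in PLC5, and ADAM15 and RECK, higher in HA22T. Of 13 pathway genes with more than 1 probe compared, 7 had probes that differed in call. ERBB3, RHBDL2, RECK and TSPAN14 were called, each with a further probe that was not, at 1.38 for ERBB3 and -1.19 for RHBDL2. BACE1, TSPAN10 and TSPAN17 were not called by their brightest probes, at -0.33, -0.58 and 0.34, and were by others, at 1.19 and 1.14 for BACE1, -3.21 for TSPAN10 and 0.85 for TSPAN17. EPGN, the ligand next to EREG, was well above background on 1 of the 6 siControl arrays and was not counted.

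**Figure D5:**
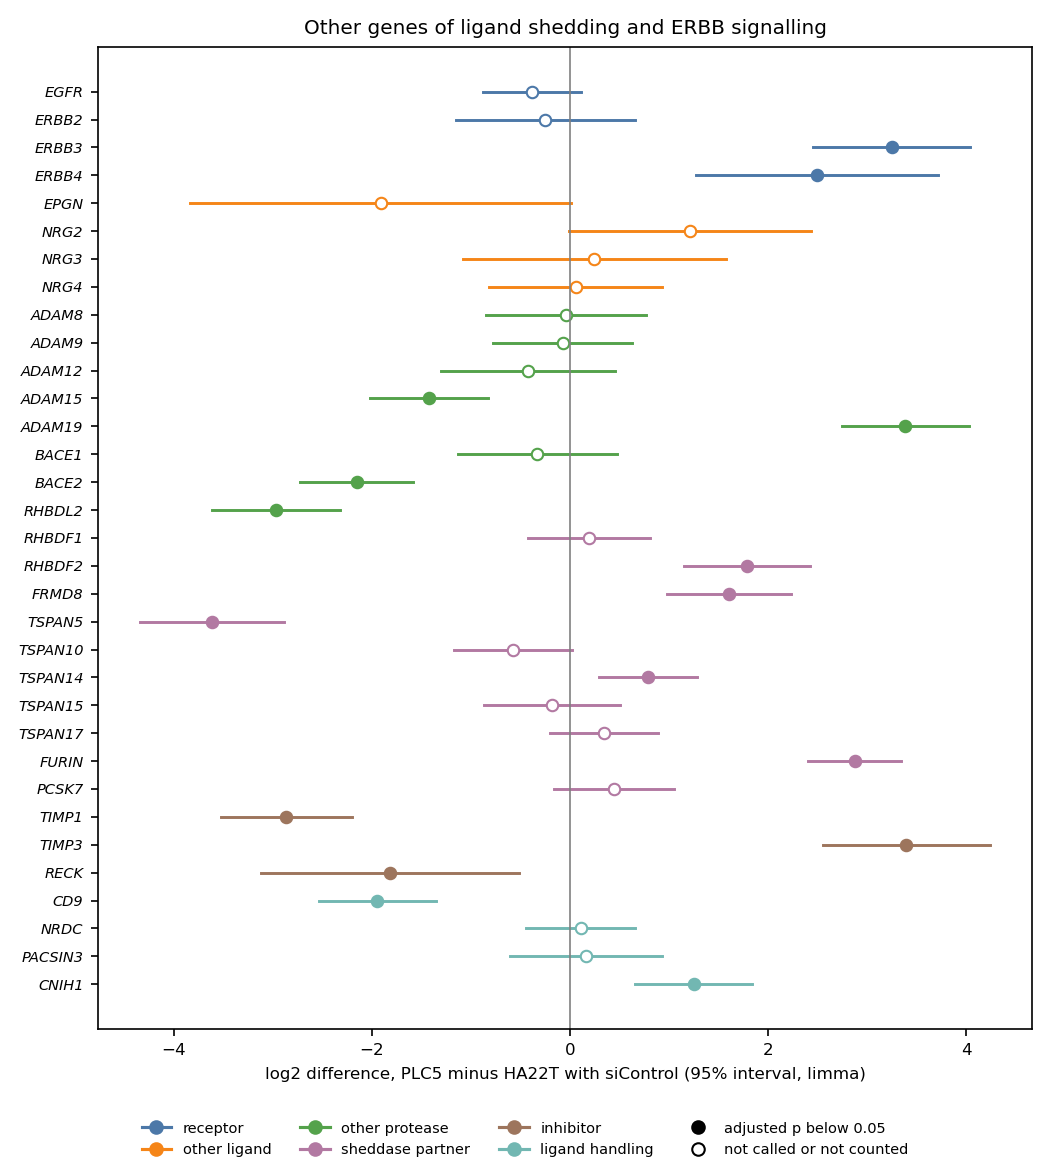
Difference between the lines with siControl for the 33 pathway genes with a probe (x axis, log2, PLC5 minus HA22T) with 95% intervals, coloured by role. Filled points have an adjusted p below 0.05, 9 to the right and 7 to the left.

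With siGALNT1, 0 of 32 pathway genes were called in either line by limma. In HA22T, NRG2 (-1.26) and NRG4 (0.89), further neuregulins, passed the study's criterion and had an unadjusted p below 0.05, with adjusted p-values of 1.00, 1 lower and 1 higher of 32 against 1.05% and 1.82% of all probes, and in PLC5 none did.

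The genes whose level over the 12 arrays was most like that of each member were named by Pearson correlation among 12300 genes well above background on every array. For AREG they were GCNT3 (0.996) and UCA1 (0.995), and 959 genes had a correlation above 0.9 with it. For NRG1 they were SFRP4 (0.976) and LINC01106 (0.971), with 94 genes above 0.9, and for ADAM17 they were DKFZP586I1420 (0.974) and CTTNBP2NL (0.973), with 241. For BTC they were MOB3B (0.964) and MXD4 (0.948), with 29 genes above 0.9. For ADAM10 they were GDE1 (0.889) and ARID4B (0.846), with 0 genes above 0.9. All arrays of a line share that line, and for AREG the correlation is mostly that split.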

How the data were processed

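RNA from 12 cell culture samples was hybridized as labeled cDNA to 1-colour Agilent human arrays, scanned and read with Agilent Feature Extraction 10.5.1.1, per the labels and the study's methods. The intensity values used here are the processed signals that the authors deposited for each array, with the spots' background already subtracted by the scanner software. A log2 table that the authors deposited, in which the 75th percentile of each array lies near 0, served as an alternative; how it was scaled is not given in the sources used here. The deposited flags for non-uniform, saturated and well above background spots were also read.

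Non-uniform spots were left out, as in the study. Spots of a probe were averaged, and log2 values were set against each array's 75th percentile over all non-control spots. Names came from the transcript column through RefSeq, which named 28174 of 50599 probes. A gene was represented by its brightest probe with a value in every group. The members' other probes are given beside it for the line differences with siControl and the siGALNT1 changes, except the dimmer TGFA probe, which lay near background. The 4 groups were fitted together with limma 3.58.1 in R 4.3.3, without a replicate block, and p-values were adjusted by Benjamini-Hochberg over probes that passed the background flag on 3 or more of the 6 arrays in a comparison (for the difference between the lines' changes, of either line). The code of the fit was run on simulated data with independent noise and planted changes in HA22T. That run does not show what size of change these arrays could detect. Replicates of a group correlated between 0.968 and 0.988 over 22277 probes, and 3 arrays a group limit the precision. Same-numbered HA22T arrays deviated together (correlations of 0.53, 0.26 and 0.34) and were taken as paired from the values alone. Those of PLC5 (0.57, 0.04 and 0.18) were not. The main fit leaves the HA22T pairing out, and the alternative with a replicate block held terms for the replicates of both lines.

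Named were all members, GALNT1, up to 10 pathway genes a comparison by size among those past a threshold, and the 2 genes most like each member well above background on all arrays. Named outside this rule, with their values seen, were the remaining 6 pathway genes called between the lines, EGFR, ERBB2, EPGN, the genes whose probes differed in call, and the cell type markers. Members and lists were chosen with earlier results of these data known. Alternatives changed the background correction, scaling, filters, blocks, variance model, probe summary and arrays. Promoter windows are from RefSeq (GRCh38.p14); the probes were annotated on another build, so their positions are not given.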

Additional observations from a re-analysis of the deposited data

How the results depend on the processing

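No member was called with siGALNT1 in either line, and none differed between the lines' changes, under any alternative run. Past the study's criterion in HA22T, where the main count was 0, there were 2 members (EREG and BTC) with normexp and with the slide as a block, and 1 with quantile normalization and with a variance trend (EREG), with each line fitted alone and with the methods' t-test (BTC), and with the replicate block (HBEGF). Leaving out 1 array gave 0 to 1 in HA22T (EREG, without siControl replicate 3) and 0 to 1 in PLC5 (AREG, without siGALNT1 replicate 1). Between the lines, the 3 members called with siControl became 5 with the slide as a block and with a variance trend, and the 3 with siGALNT1 became 5 with quantile normalization; HBEGF was among the members gained each time. The replicate block, which pairs arrays within a line, was run for the siGALNT1 changes only and called no member. Over all probes the 1 call in HA22T, a GALNT1 probe, became 0 with it. The cause of these changes was not tested.

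Signs turned only for values that were not called. Between the lines with siControl, BTC gave -0.025 with quantile normalization, -0.011 with median scaling and -0.56 with the slide as a block, and ADAM10 0.035 with quantile normalization; leaving out 1 array gave -0.18 to 0.50 for BTC, -0.14 to 0.10 for ADAM10 and -0.52 to 0.35 for EGF. With siGALNT1, EGF gave -0.23 with normexp, -0.10 with quantile normalization and -0.45 with the slide as a block, and ADAM10 0.20 with the mean over probes; leaving out 1 array gave -0.21 to 0.69 for EGF and -0.56 to 0.61 for ADAM10. For the change in PLC5, NRG1 gave 0.038 with the mean over probes, and leaving out 1 array gave -0.73 to 0.13 for NRG1, -0.082 to 0.29 for EREG, -0.41 to 0.31 for BTC, -0.63 to 0.093 for EGF, -0.55 to 0.12 for TGFA and -0.95 to 0.23 for ADAM10.

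Over all probes the criterion took 1043 in HA22T, between 479 with the filter on all 6 arrays and 1959 with no filter, and 492 in PLC5, between 124 and 745 with the same filters; the methods' t-test took 753 and 325, and 1 and 0 after adjustment, and the replicate block 1752 and 727. Leaving out 1 array gave 508 to 1531 in HA22T (508 without siControl replicate 1, 621 without siGALNT1 replicate 2) and 298 to 1268 in PLC5 (298 without siControl replicate 2, 818 without siControl replicate 1, 1268 without siGALNT1 replicate 3). Calls between the lines with siGALNT1 fell from 8406 to 5231 with the filter on all 6 arrays and to 5460 without PLC5 siGALNT1 replicate 2, and with siControl from 8365 to 5557 and 5468 without PLC5 siControl replicates 2 and 3. The filter on all 6 arrays leaves EREG out of the line comparisons. EGF, HBEGF in PLC5 and the dimmer TGFA probe lie near background, which limits what their values can show.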
